A study of Homo sapiens with 12 samples.

Results

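The messenger RNAs of 10 Krüppel-like factors (KLF genes) were examined in UM-UC-3 bladder cancer cells, a human cell line, with 3 arrays in each of 4 transfection groups. The genes were KLF2, KLF3, KLF4, KLF5, KLF6, KLF7, KLF9, KLF10, KLF11 and KLF13, taken with every probe that carries their symbol. They had 13 of the 46713 probes and were 10 of 24962 gene names; KLF6, KLF10 and KLF11 had 2 probes each and the other 7 genes had 1. Cells were transfected at 50 nM for 72 h with miR-101 precursor or its control precursor, or with EZH2 siRNA or its control siRNA. No array of untransfected cells was used here. The study asked about miR-101 and EZH2, the Polycomb enzyme that methylates histone H3.

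KLF proteins are transcription factors with 3 zinc fingers at the carboxyl end that bind GC-rich and CACCC sequences, the same kind of site that SP1 and its relatives bind. Outside the fingers they differ. KLF2, KLF4, KLF5, KLF6 and KLF7 mostly activate transcription, KLF3 represses through the CtBP corepressors, and KLF9, KLF10, KLF11 and KLF13 recruit the SIN3 corepressor. In epithelia they take part in the balance between proliferation and differentiation, and several respond within hours to serum, stress or hormones.

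The mature strand of the microRNA is shown because it defines the treatment. Its seed, bases 2 to 8 from the 5′ end, is in capitals, and the sequence is from RefSeq (GRCh38.p14, chr9:4850345-4850365, plus strand).
hsa-miR-101-3p: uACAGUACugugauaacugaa

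Promoter windows of 300 bases, from 250 before to 50 after the annotated start, are shown for the 3 KLF genes with the largest changes. They are printed 5′ to 3′ on the gene's strand from RefSeq (GRCh38.p14), and 8 of the 10 genes had at least 1 window in that table. KLF2 lies at chr19:16324576-16324875 on the plus strand, KLF6 at chr10:3785160-3785459 and KLF9 at chr9:70414608-70414907, both on the minus strand. Capitals mark the GC box GGGCGG and the MEF2 motif (CTA, any 4 bases, then TAG) on either strand; neighbouring GC boxes can overlap.
KLF2: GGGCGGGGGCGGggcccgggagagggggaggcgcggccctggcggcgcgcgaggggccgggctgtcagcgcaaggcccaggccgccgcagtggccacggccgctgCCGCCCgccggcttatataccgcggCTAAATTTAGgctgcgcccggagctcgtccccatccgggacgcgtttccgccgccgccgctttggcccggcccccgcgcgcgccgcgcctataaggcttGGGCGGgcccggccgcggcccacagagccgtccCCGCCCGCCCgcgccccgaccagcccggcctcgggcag
KLF6: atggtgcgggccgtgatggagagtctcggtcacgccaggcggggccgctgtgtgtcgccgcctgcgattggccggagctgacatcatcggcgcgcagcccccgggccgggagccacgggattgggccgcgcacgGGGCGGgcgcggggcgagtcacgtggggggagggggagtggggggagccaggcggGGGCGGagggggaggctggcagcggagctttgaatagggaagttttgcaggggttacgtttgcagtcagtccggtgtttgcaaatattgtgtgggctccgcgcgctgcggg
KLF9: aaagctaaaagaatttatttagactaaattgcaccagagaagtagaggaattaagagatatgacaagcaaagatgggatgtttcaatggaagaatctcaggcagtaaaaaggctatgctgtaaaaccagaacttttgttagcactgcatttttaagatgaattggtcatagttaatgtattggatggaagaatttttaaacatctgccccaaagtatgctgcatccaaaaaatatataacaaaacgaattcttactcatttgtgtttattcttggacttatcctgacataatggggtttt

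The KLF2 window held 6 GC boxes, the KLF6 window 2 and the KLF9 window 0, where 45.0% of all 35116 promoter windows held at least 1. The KLF2 window also held the MEF2 motif as CTAAATTTAG, ending 110 bases before the start, and 2.73% of all windows held that motif. Neither the KLF6 nor the KLF9 window held it. None of the 3 windows held the pentamer CACCC on either strand, which 59.9% of all windows held. These matches describe letters and were not tested as binding sites.

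Mean signal per array was 304 to 497 and 15453 to 16377 probes were detected (detection p-value under 0.05). EZH2 fell in both treatments, to 53.8% of the control with miR-101 and 43.0% with EZH2 siRNA (adjusted p 0.000300 and 0.000432). These shares are from its brighter probe and hold for the normalized scale described below. Another EZH2 probe was also detected on all 12 arrays (signals 137.2 to 624.1), and its change is not given here. Of 13 urothelial and epithelial markers 6 were detected, the keratins KRT7, KRT8 and KRT18 with UPK1B, FOXA1 and PPARG; UPK1A, UPK2, UPK3A, KRT5, KRT20, GATA3 and TP63 were not. Of markers of other cells, 2 of 5 leukocyte genes (CD68 and PTPRC), 1 of 4 endothelial and 2 of 4 fibroblast genes were detected. Summed leukocyte marker signals were 3506 to 3881 in the control precursor, 3935 to 6693 in miR-101, 4624 to 5338 in the control siRNA and 3467 to 4239 in the EZH2 siRNA group, and their part in the results was not tested. In bulk RNA fewer cells of a state and less RNA per cell cannot be told apart. Values below are normalized log2 intensities, after background correction and an added offset of 16. The resulting scale flattens dim genes, and the dimmest detected probes lay at 6.81 to 6.82 on it.

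With miR-101, KLF2 fell more than any other KLF gene tested, KLF9 and KLF6 rose and KLF10 fell, while KLF3, KLF4, KLF5, KLF11 and KLF13 did not pass the test. Of the 10 genes, 9 passed the filter on dim probes, and KLF7 did not. Of those 9, 2 were higher and 2 lower at an adjusted p under 0.05 (limma, adjusted over 13528 genes). That is 44.4% of them, against 44.9% of all genes tested, so the count is near the background. The median change was 0.00 both for the 9 genes and for all genes tested. The groups did not overlap for the 4 called genes (53.6% of all genes tested did not overlap).

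With EZH2 siRNA KLF2 and KLF10 rose and KLF6 fell, each in the direction opposite to that with miR-101. The 3 called genes were 33.3% of the 9 tested, against 10.5% of all genes (2 higher against 5.85%, 1 lower against 4.64%). The groups of 5 of the 9 did not overlap, KLF2, KLF5, KLF6, KLF10 and KLF13, against 32.6% of all genes. For the dim KLF5 they were barely apart, at 6.84934 or more with EZH2 siRNA and 6.84884 or less with the control siRNA. Its bead signals in these groups overlapped (95.3 to 115.1 and 100.2 to 104.9). With median scaling in place of quantile normalization only KLF6 of the 3 called genes passed the threshold. The responses to the treatments themselves differed for 4 genes, KLF2, KLF6, KLF9 and KLF10, against 33.8% of all genes tested. Of these 2 were higher with miR-101 (17.4% of all genes) and 2 lower (16.4%).

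The controls also differed. KLF2, KLF4, KLF10 and KLF13 were lower and KLF9 was higher with the control siRNA than with the control precursor, 5 of the 9 genes against 28.3% of all genes (1 higher against 14.1%, 4 lower against 14.2%). The groups of 6 of the 9 did not overlap, KLF11 besides those 5 (47.9% of all genes). Without control precursor replicate 2 the count was 3, and with median scaling it was 2, KLF10 and KLF13. The precursor groups shared 1 array chip and the siRNA groups the other, so chip and transfection type cannot be told apart in this comparison.

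Because of that difference each treatment was also set against the control of the other chip. With miR-101 4 of the 9 genes were then higher (KLF4, KLF6, KLF9 and KLF13) and 1 lower (KLF2), against 22.9% and 20.2% of all genes and 43.1% in either direction. The groups of 6 of the 9 did not overlap (54.1% of all genes). With EZH2 siRNA 1 was higher (KLF9) and 4 were lower (KLF4, KLF6, KLF10 and KLF13), against 15.1% and 13.4% of all genes and 28.6% in either direction. The groups of 5 of the 9 did not overlap (43.1% of all genes). Fitted on its own chip alone, each treatment gave the same KLF calls as in the fit of all 12 arrays.

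**Figure D1:**
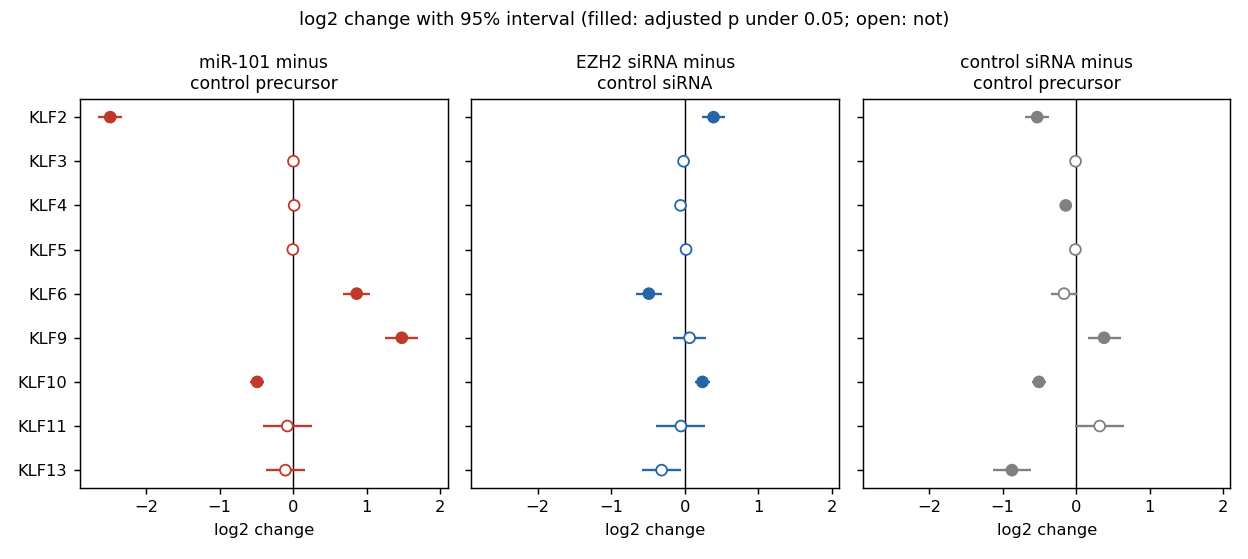
Log2 change (horizontal axis) with its 95% interval for the 9 KLF genes tested, in 3 comparisons of 3 arrays against 3. Filled points passed an adjusted p of 0.05 and open points did not. KLF2 lies at -2.49 with miR-101 and at 0.39 with EZH2 siRNA, while KLF6 lies at 0.86 and -0.49.

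KLF2 keeps endothelial cells and T cells quiescent, is switched on through the ERK5 kinase and MEF2 factors, and has been reported as a gene silenced by EZH2 in tumour cells. Its bead signals were 3486, 3448 and 3880 with the control precursor and 828, 490 and 608 with miR-101. With the control siRNA they were 2345, 2375 and 2161, and with EZH2 siRNA 3726, 3633 and 2399. All 3 miR-101 arrays lay far below the other 9. Normalized values were 11.61 ± 0.126 (SD, n = 3), 9.12 ± 0.0297, 11.08 ± 0.123 and 11.48 ± 0.0498 in the same order of groups.

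KLF2 changed by -2.49 with miR-101 (SE 0.0714, 95% interval -2.65 to -2.33), a 5.61-fold fall to 17.8% of the control (adjusted p 2.18e-08). Against the control siRNA the change was -1.96 (adjusted p 1.28e-07). Over the other processing settings it lay between -2.57 and -2.19. The rise with EZH2 siRNA was 0.39 (interval 0.23 to 0.55), 1.31-fold, with an adjusted p of 0.00800. That rise was 0.32 and not past the threshold with median scaling (adjusted p 0.373). It became -0.14 against the control precursor (adjusted p 0.200), since the control siRNA group lay 0.53 below the control precursor group (adjusted p 0.000569). The difference between the responses was -2.88 (SE 0.101, adjusted p 2.37e-07).

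Among 13527 other genes, those with the group means most like KLF2 were MT1A and MT2A, metallothioneins that bind zinc and copper, and LOC148915. The measure was the distance between the 4 group means after centring each gene, and it was 0.0909, 0.206 and 0.246 log2 units. Of the KLF genes tested, KLF10 was nearest to KLF2, at 1.76.

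KLF4, a factor of epithelial barrier formation and one of the reprogramming factors, is controlled by the same ERK5 and MEF2 route. Its values were 7.12, 7.18 and 7.08 with the control precursor and 7.17, 7.17 and 7.09 with miR-101. They were 6.97, 6.99 and 7.00 with the control siRNA and 6.89, 6.92 and 6.99 with EZH2 siRNA. Each treated group overlapped its own control, and the siRNA arrays all lay below the precursor arrays. The change was 0.01 with miR-101 (interval -0.07 to 0.09, adjusted p 0.798) and -0.06 with EZH2 siRNA (-0.14 to 0.02, adjusted p 0.403). The controls differed by -0.14 (adjusted p 0.0162), which was -0.36 with normexp background correction. Leaving out control precursor replicate 2 ended that call (adjusted p 0.0574), as did leaving out control siRNA replicate 1 (0.0511) or median scaling (0.235). Against the other chip's control the change was 0.15 with miR-101 (0.00623) and -0.20 with EZH2 siRNA (0.00294).

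**Figure D2:**
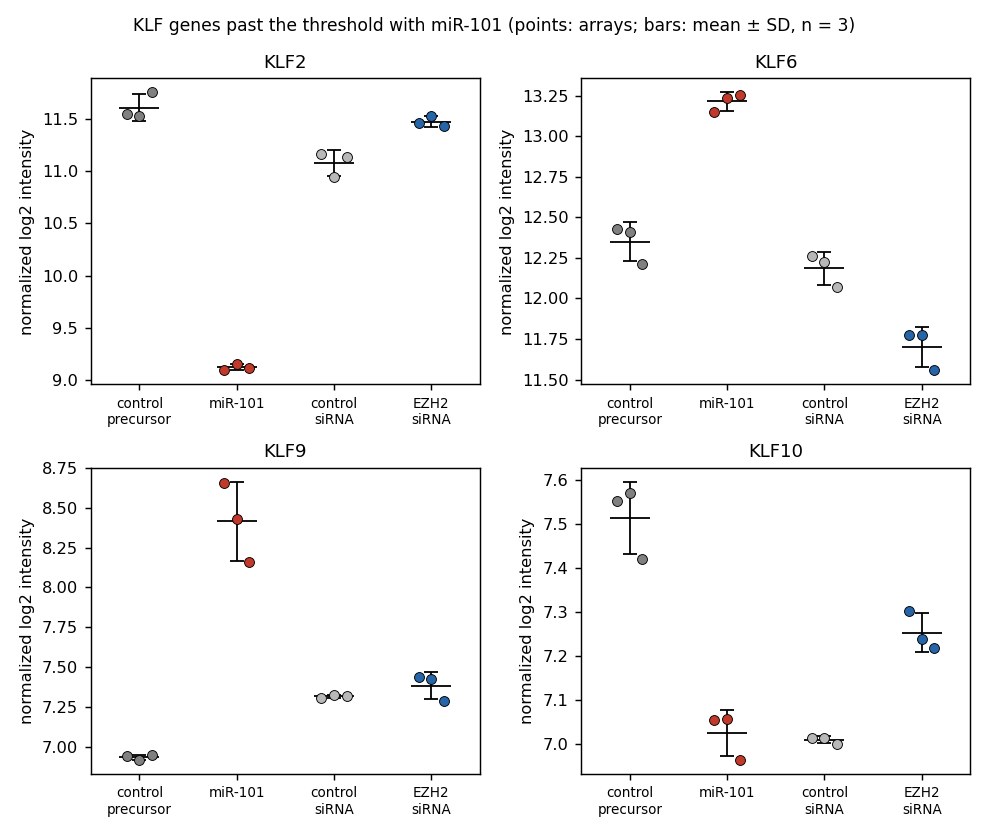
Normalized log2 intensity (vertical axis, its range set per panel) of KLF2, KLF6, KLF9 and KLF10 on each of the 12 arrays, with group means and SD (n = 3). The miR-101 arrays of KLF2 lie at 9.09 to 9.15, below all others, and those of KLF6 and KLF9 lie above all others.

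KLF6, reported as a tumour suppressor in several carcinomas and as an activator of the CDK inhibitor gene CDKN1A, moved in opposite directions. Its brighter probe read 12.43, 12.41 and 12.21 with the control precursor and 13.15, 13.24 and 13.26 with miR-101. It read 12.26, 12.23 and 12.07 with the control siRNA and 11.77, 11.77 and 11.56 with EZH2 siRNA. The miR-101 arrays were the highest 3 of the 12 and the EZH2 siRNA arrays the lowest 3. The rise with miR-101 was 0.86 (SE 0.0801, interval 0.68 to 1.04), 1.82-fold, with an adjusted p of 2.08e-05. The fall with EZH2 siRNA was -0.49 (interval -0.67 to -0.31, adjusted p 0.00490). Against the control of the other chip the values were 1.03 and -0.65 (adjusted p 8.23e-06 and 0.000323). The second KLF6 probe read 10.30 to 10.48 with the control precursor and 11.09 to 11.43 with miR-101. It read 9.98 to 10.14 with the control siRNA and 9.31 to 9.68 with EZH2 siRNA, with no overlap in either comparison. That probe, which was named by its symbol alone, when fitted with all 17844 passing probes, gave 0.85 and -0.63 (adjusted p 0.000280 and 0.00935). The responses differed by 1.35 by the brighter probe (adjusted p 2.42e-05) and 1.48 by the second.

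Against either control KLF6 was higher with miR-101 and lower with EZH2 siRNA, and no other of the 9 genes was called in both treatments against both controls. The controls differed by -0.16 by its brighter probe (adjusted p 0.165) and by -0.33 by the second (0.0620). With array weights the first of these passed the threshold, at -0.21 (adjusted p 0.0203).

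KLF5, which drives proliferation of basal epithelial cells, and KLF7, a factor of neuronal and fat cell development, were dim. KLF5 signals were 90.4 to 115.9 over the 12 arrays, and 11 of these were detected. Its change was 0.00 with miR-101 (interval -0.05 to 0.04) and 0.02 with EZH2 siRNA (-0.02 to 0.06), with adjusted p of 0.897 and 0.604. KLF7 signals were 75.9 to 109.3, with 2 of 12 arrays detected, so it was left out of the test. In a fit of all probes without a filter it gave -0.03 with miR-101 (adjusted p 0.397) and -0.02 with EZH2 siRNA (0.776). Both lay close to the floor of the scale, where a fall could hardly be measured, and the intervals hold only for the flattened scale.

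KLF3, the CtBP-dependent repressor of the set, was equally dim. Its signals were 83.3 to 109.5, and 6 of 12 arrays were detected, 2 in each group but none with EZH2 siRNA. The change was 0.00 with miR-101 (interval -0.05 to 0.06, adjusted p 0.903) and -0.01 with EZH2 siRNA (-0.06 to 0.04, adjusted p 0.798). The EZH2 siRNA arrays overlapped those of the control siRNA, and no fold is given for this undetected group.

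**Figure D3:**
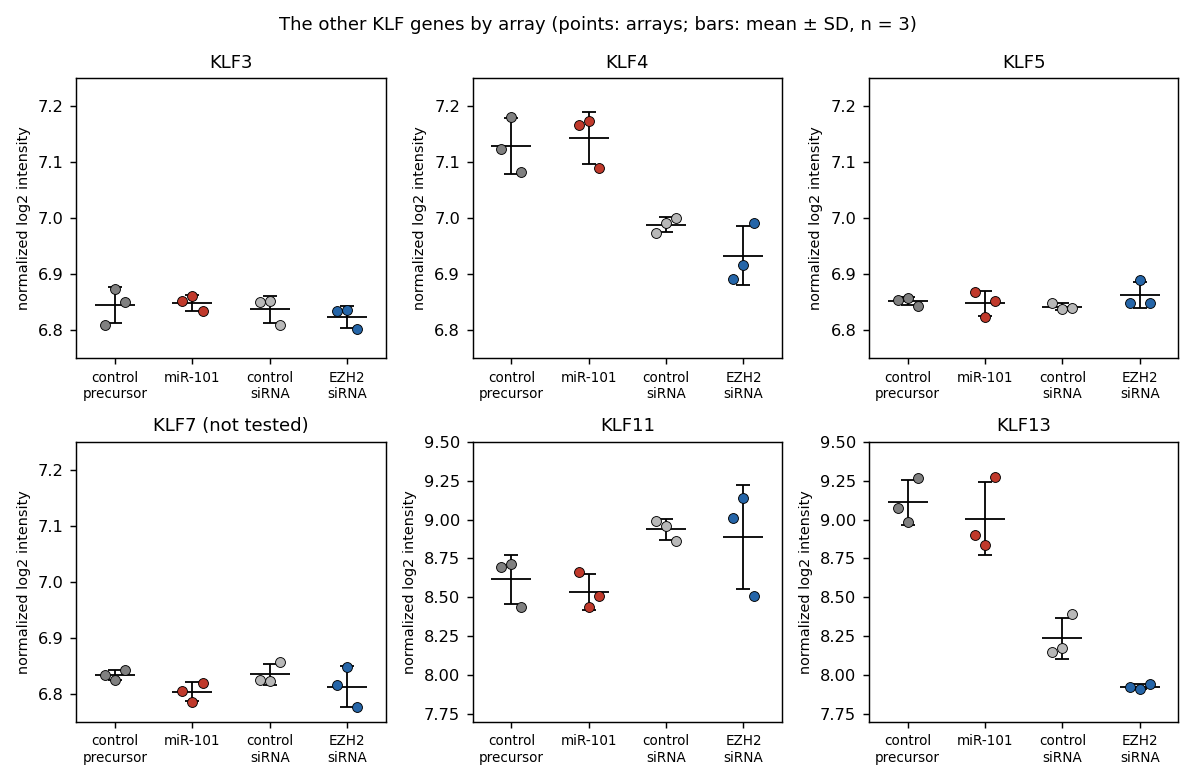
Normalized log2 intensity (vertical axis) of the other 6 KLF genes on each array, with group means and SD (n = 3). KLF11 and KLF13 share an axis with a wider range than the other 4; all 6 siRNA arrays of KLF13 lie below all 6 precursor arrays.

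KLF9, induced by glucocorticoid and thyroid hormones, rose with miR-101. Its bead signals were 143.6, 124.7 and 124.7 with the control precursor and 655.1, 350.3 and 374.7 with miR-101. They were 214.1, 253.4 and 220.0 with the control siRNA and 304.3, 284.9 and 188.8 with EZH2 siRNA. The miR-101 arrays stood above the other 9, and the control precursor arrays below. The normalized rise was 1.48 (SE 0.100, interval 1.25 to 1.70), 2.79-fold, with an adjusted p of 2.82e-06. With normexp in place of neqc it was 2.05, and with neqc and an offset of 50 it was 1.26. Against the control siRNA it was 1.10 (adjusted p 2.15e-05). The spread within the miR-101 group was wide, from 8.16 to 8.66.

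EZH2 siRNA gave a KLF9 change of 0.07 (interval -0.16 to 0.29, adjusted p 0.766), and its arrays overlapped those of the control siRNA. The responses differed by 1.41 (adjusted p 6.97e-05). The control siRNA lay 0.38 above the control precursor (adjusted p 0.0188), or 0.90 with normexp. Leaving out control precursor replicate 2 ended this KLF9 call (adjusted p 0.0532), as did leaving out control siRNA replicate 2 (0.0557) or 3 (0.0549), or median scaling (0.179). Against the control precursor the value with EZH2 siRNA was 0.45 (adjusted p 0.00857).

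KLF10, first described as an early gene induced by TGF-beta, was highest with the control precursor. Its brighter probe read 7.55, 7.57 and 7.42 there and 7.05, 7.06 and 6.96 with miR-101. It read 7.01, 7.01 and 7.00 with the control siRNA and 7.30, 7.24 and 7.22 with EZH2 siRNA. The miR-101 arrays overlapped those of the control siRNA, the EZH2 siRNA arrays lay above both, and the control precursor arrays above all. The change with miR-101 was -0.49 (interval -0.59 to -0.39, adjusted p 1.53e-05), and against the control siRNA it was 0.02 (adjusted p 0.813). With EZH2 siRNA it was 0.24 (interval 0.15 to 0.34, adjusted p 0.00711), and against the control precursor it was -0.26 (0.00167). The controls themselves differed by -0.50 (adjusted p 4.18e-05).

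The KLF10 sizes depended on the background correction: with normexp they were -0.91 for miR-101 and 0.55 for EZH2 siRNA. With median scaling the rise with EZH2 siRNA was 0.23 and not past the threshold (adjusted p 0.100). The second KLF10 probe had signals of 75.9 to 149.6 and was not detected on any miR-101 or control siRNA array. It gave a bound of at least 1.10-fold lower with miR-101 (adjusted p 0.000127). With EZH2 siRNA it gave at least 1.03-fold higher, which was not past the threshold (adjusted p 0.149).

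**Figure D4:**
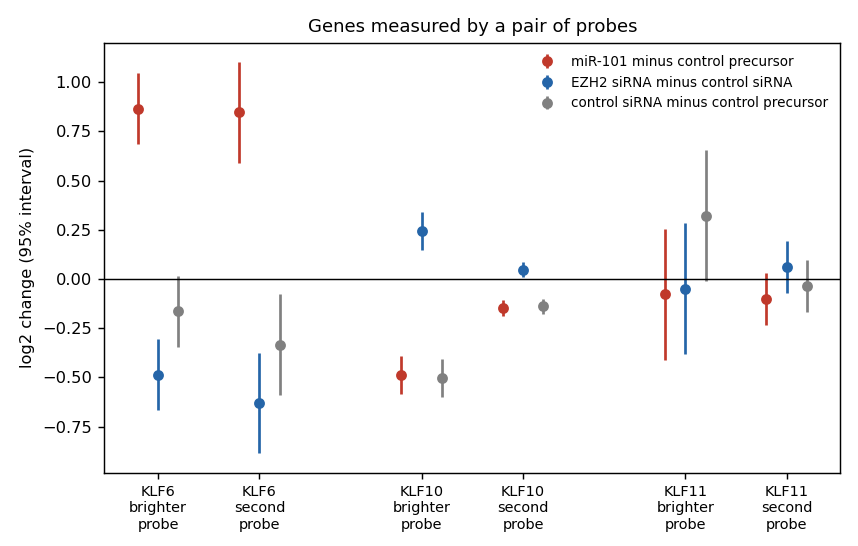
Log2 change with its 95% interval (vertical axis) for both probes of KLF6, KLF10 and KLF11 in 3 comparisons, from the fit of all passing probes. The KLF6 probes lie at 0.86 and 0.85 with miR-101 and at -0.49 and -0.63 with EZH2 siRNA; the dimmer KLF10 probe was undetected with miR-101 and with the control siRNA, so the sizes of its changes cannot be set against those of the brighter probe.

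KLF11, a relative of KLF10 that also responds to TGF-beta, did not pass the test in either treatment. Its brighter probe read 8.44 to 8.72 with the control precursor, 8.44 to 8.66 with miR-101, 8.86 to 8.99 with the control siRNA and 8.51 to 9.14 with EZH2 siRNA. EZH2 siRNA replicate 3 was the lowest of its group, and without it the change turned from -0.05 to 0.14 (adjusted p 0.490). The change with miR-101 was -0.08 (interval -0.41 to 0.25, adjusted p 0.715) and with EZH2 siRNA -0.05 (-0.38 to 0.28, adjusted p 0.901). The second probe gave -0.10 and 0.06. The controls differed by 0.32 by the brighter probe and -0.04 by the second, neither past the threshold (adjusted p 0.141 and 0.729). The first of these passed it without EZH2 siRNA replicate 3, which is in neither group (adjusted p 0.0236). The brighter probe was designed on a predicted transcript and was named by its symbol alone.

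KLF13, which activates the chemokine gene CCL5 in T cells, was lower on all 6 siRNA arrays than on all 6 precursor arrays. It read 9.08, 8.99 and 9.27 with the control precursor and 8.90, 8.84 and 9.27 with miR-101. It read 8.15, 8.17 and 8.39 with the control siRNA and 7.92, 7.91 and 7.94 with EZH2 siRNA. The miR-101 arrays overlapped their control, and the EZH2 siRNA arrays lay below theirs. The change with miR-101 was -0.10 (interval -0.37 to 0.16, adjusted p 0.513) and with EZH2 siRNA -0.31 (-0.57 to -0.05, adjusted p 0.130). The latter passed the threshold with array weights (-0.32, adjusted p 0.0252) and without miR-101 replicate 3, an array of neither group (0.0399). The controls differed by -0.87 (adjusted p 0.000527), a 1.83-fold lower value with the control siRNA. Against the other chip's control, KLF13 was at 0.77 with miR-101 and -1.18 with EZH2 siRNA (adjusted p 0.000537 and 8.42e-05).

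Of the 7 remaining KLF genes, 3 passed the filter on dim probes, KLF1, KLF12 and KLF16. None was called with miR-101, where limma gave 0 of 3 at the adjusted threshold and 1 of 3 at an unadjusted p under 0.05 (KLF12, 0.11, adjusted p 0.0704). At the adjusted threshold 44.9% of all genes were called with miR-101 and 10.5% with EZH2 siRNA. KLF12, a CtBP-dependent repressor like KLF3, fell by 0.19 with EZH2 siRNA (adjusted p 0.0272), but against the control precursor it was at -0.02 (adjusted p 0.762). These values are from its brighter probe. Another KLF12 probe was dim but detected on all 12 arrays (signals 93 to 116.1), and its change is not given here. KLF8, KLF14, KLF15 and KLF17 were detected on at most 1 array.

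Of 5 SP genes tested of 9, 1 was called higher and 2 lower with miR-101 (23.6% and 21.3% of all genes). SP4 was at -0.39 and SP2 at -0.16. The gene called higher was SP3, whose probe was undetected on all 3 miR-101 arrays, so its size is not given. That probe was not dim. Its signals were 241.2 to 639.7 with 3 of the 12 arrays detected, where KLF4, at 124.6 to 217.5, was detected on all 12. Against the control siRNA 4 of the 5 were lower, SP3 among them, where 20.2% of all genes were lower. With EZH2 siRNA SP2 rose (0.21) and SP4 fell (-0.50), 1 gene each way against 5.85% and 4.64% of all genes. Against the control precursor SP2 was at 0.22, while SP4, at -0.21, did not pass (adjusted p 0.0727).

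Of 11 corepressors and coactivators of KLF proteins, 4 rose and 2 fell with miR-101, against 23.6% and 21.3% of all genes. They included the acetyltransferase KAT2B (1.62), the deacetylase HDAC1 (1.22), the KLF3 partner CTBP1 (-0.79) and the scaffold SIN3A (0.51). The 4 rises were not kept against the control siRNA. KAT2B was then at 0.40 (adjusted p 0.0545), HDAC1 at 0.10 (0.304) and SIN3B at 0.32 (0.128), while SIN3A turned to -0.36 (0.0259). In that comparison 5 of the 11 were lower, CTBP1 (-0.40) among them, against 20.2% of all genes. With EZH2 siRNA CREBBP (0.34) and HDAC1 (0.32) rose and HDAC3 (-0.46) and SIN3A (-0.43) fell, 2 genes each way against 5.85% and 4.64% of all genes. Against the control precursor SIN3A turned to 0.45 (adjusted p 0.0152), CREBBP was at 0.40, HDAC3 at -0.31 and HDAC1 at 1.44.

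Among 9 ubiquitin ligases and deubiquitinases reported to act on KLF proteins, 3 rose and 2 fell with miR-101, which as 5 of 9 is close to the 44.9% of all genes called. WWP1, a ligase for KLF2 and KLF5, rose by 1.12 and FBXW7, a ligase for KLF5, was at -0.81, with BTRC at 0.30 and VHL at -0.48. Against the control siRNA WWP1 was at 0.34 and FBXW7 at -0.40 (adjusted p 0.0434 and 1.90e-05), BTRC was at 0.50 and VHL at -0.17, the last not past the threshold (0.171). With EZH2 siRNA 2 of the 9 rose, VHL (0.34) and FBXW7 (0.24), against 5.85% of all genes. Against the control precursor FBXW7 turned to -0.17 (adjusted p 0.00538) and VHL was at 0.04 (0.814).

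Of 5 genes tested of the ERK5 and MEF2 route, MEF2D alone was called. Of all genes 44.9% were called with miR-101 and 10.5% with EZH2 siRNA. MEF2D, one of the factors that bind the motif shown in the KLF2 window, was at -1.40 with miR-101 (adjusted p 1.11e-07). Against the control siRNA it was at 0.12 (adjusted p 0.0952), since the controls differed by -1.52 (adjusted p 3.52e-07). With EZH2 siRNA it rose by 0.52 (adjusted p 0.000389), but it was lower than in the control precursor group, at 49.97% of it on the linear scale (adjusted p 1.82e-06). The kinase genes MAP3K3, MAP2K5 and MAPK7 gave 0.02, -0.05 and 0.03 with miR-101, none past the threshold.

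Of 5 TGF-beta receptor and SMAD genes tested of 6, SMAD3 was at -1.04 and TGFBR2 at 0.66 with miR-101, and the other 3 were not called. That is 1 gene each way, where 23.6% of all genes were higher and 21.3% lower. SMAD3 against the control siRNA was at -0.07 (adjusted p 0.793). With EZH2 siRNA, where 4.64% of all genes were lower, TGFBR2 fell (-0.91, adjusted p 0.00174) and no other gene of the list was called. TGFBR2 kept its direction against the control of the other chip, at 0.83 with miR-101 and -1.08 with EZH2 siRNA.

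Of 19 genes reported as KLF targets 13 were tested, and with miR-101 3 rose and 5 fell, against 23.6% higher and 21.3% lower of all genes. They included the cell cycle genes CCND1 (-1.26) and CDKN1A (-0.69), the galectin LGALS3 (0.55), which KLF3 represses in mouse cells, and the protease PLAU (1.13). CDKN1A turned to 0.37 against the control siRNA (adjusted p 0.000534). With EZH2 siRNA 2 rose, CDKN1A (0.50) and SMAD7 (0.32), and 1 fell, CCND1 (-1.09), against 5.85% higher and 4.64% lower of all genes. Against the control precursor CDKN1A turned to -0.57 (adjusted p 8.49e-05) and SMAD7 was at 0.06 (0.155). CCND1 was lower in both treatments against either control, at -1.23 and -1.12 against the control of the other chip. The endothelial KLF2 targets THBD and NOS3 were not detected on any array. S1PR1 of the same list was dim but detected on 11 arrays, and fell by 0.11 with miR-101 (adjusted p 0.00129). Its group means were 6.98 with the control precursor, 6.87 with miR-101, 6.91 with the control siRNA and 6.85 with EZH2 siRNA.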

How the data were processed

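Total RNA (Trizol, TotalPrep amplification) was read on 12 Illumina bead arrays, per the labels' protocols. The deposited raw table holds average bead signals, an intensity with no background subtracted, and a detection p-value per probe, per the file headers. BeadStudio was named in the submitters' processing notes; no version of it was found in the labels. A table of intensity values that the authors deposited, with a median of 89.1 on every array, served as an alternative. The column headers put the precursor groups on 1 chip and the siRNA groups on the other, with treated arrays at the later positions of each, and chip position therefore goes with treatment.

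Signals were processed with neqc in limma 3.58.1 (R 4.3.3; offset 16). A probe was kept if 3 or more of the 12 arrays had a detection p under 0.05 (17844 probes), and 1 was taken per gene by highest mean (13528 genes). Probes were named by RefSeq accession, then symbol. A model of 4 groups was fitted with lmFit and eBayes (8 residual and 1.36 prior degrees of freedom), two-sided, with Benjamini-Hochberg adjustment over all genes (limit 0.05). Every adjusted p comes from this limma fit or its alternatives: normexp, neqc with an offset of 50, median scaling, the authors' normalized table, other filters, array weights, a replicate block, 1 chip alone, the other control and each array left out. The fit was tested on simulated data.

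The members, the gene lists and the tests were chosen with earlier results of these data known, so a list is described by counts only. All members were named, and of each list up to 4 called genes with the smallest adjusted p. Further genes were named outside that rule, such as SIN3B, S1PR1, the uncalled kinase genes and the undetected THBD and NOS3. Genes likened to KLF2 were the 3 nearest by centred group means. The labels do not say whether triplicates were separate cultures, so p-values measure the spread between arrays, which may be technical, and the number of arrays limits the precision.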

Additional observations from a re-analysis of the deposited data

How the results depend on the processing

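In all 784 values of a KLF gene under another setting were computed, and 741 kept their direction and their side of the threshold. That count includes settings that could not change a direction. The replicate block, 1 chip alone and leaving out an array of neither group keep the log2 change and alter only its p-value. The calls of KLF2, KLF6 and KLF9 with miR-101 held under every setting run. Those of the 4 genes whose responses differed held under every setting run for the difference. The difference was not run with the other chip's control or on 1 chip alone. Its calls were therefore not tested against an exchange of the controls, which turned KLF10 in both treatments. With the other chip's control KLF10 with miR-101 turned to 0.016 and KLF13 to 0.77, and with EZH2 siRNA KLF2 turned to -0.14, KLF10 to -0.26 and KLF11 to 0.27; the count with EZH2 siRNA was then 5 KLF genes and 3865 genes in all. Uncalled values near 0 that changed sign were KLF5 with miR-101 (0.0035 with median scaling, 0.0056 with array weights and 0.0056 against the control siRNA) and KLF11 (0.076 for EZH2 siRNA with array weights, 0.12 for the difference with median scaling).

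Median scaling left 387 genes and 1 KLF gene with EZH2 siRNA (30.7% of the calls higher, against 55.7%), 2713 genes for the difference of the responses, and 2215 genes and 2 KLF genes between the controls (75.6% higher, against 49.7%). Array weights gave 2689 genes with EZH2 siRNA, where equal weights gave 1419. The cause was not tested. Leaving out 1 array, with the normalization kept, gave 791 to 1627 genes and 3 to 4 KLF genes with EZH2 siRNA, 5297 to 6275 genes and 4 KLF genes with miR-101, 3979 to 4580 genes and 4 KLF genes for the difference, and 2839 to 4113 genes and 3 to 6 KLF genes between the controls. The lowest counts with EZH2 siRNA came without control siRNA replicate 3 (791), control siRNA replicate 2 (894) and EZH2 siRNA replicate 1 (918). Uncalled values then ranged from -0.013 to 0.019 for KLF3, -0.0095 to 0.041 for KLF4 and -0.014 to 0.0085 for KLF5 with miR-101, from -0.18 to 0.14 for KLF11 with EZH2 siRNA, from -0.22 to 0.098 for KLF11 in the difference and from -0.024 to 0.0075 for KLF3 between the controls.

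The groups share replicate numbers, but nothing in the labels pairs them. Correlations of same-numbered arrays after removing group means were -0.41 to 0.55, and 7 of 12 arrays correlated best with an array of their own number. With the replicate number as a block 6044 genes were called with miR-101, 1436 with EZH2 siRNA, 4615 for the difference and 3917 between the controls; the call of KLF13 with EZH2 siRNA was gained (-0.31, adjusted p 0.0318), and no other KLF call changed. Signal over background limits KLF3, KLF5 and KLF7, for which a fall could hardly be measured.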

Other observations

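After the genes nearest to KLF2 had been seen, the metallothioneins tested were looked up, namely MT1A, MT1G, MT1X and MT2A. With miR-101 all 4 fell, with log2 changes of -2.48 to -2.03, or -1.83 to -1.02 against the control siRNA. Of all genes 21.3% and 20.2% were lower in these comparisons. MT1A and MT2A had been picked by their likeness to KLF2 over the 4 groups, so their changes followed from that choice. With EZH2 siRNA MT1G rose (0.63, adjusted p 0.00296), while MT1A (0.46), MT1X (0.42) and MT2A (0.33) were not past the threshold. Against the control precursor MT1G turned to -0.37 (adjusted p 0.0151), MT1X was at -0.58 (0.0256), and MT1A (-0.12) and MT2A (-0.04) were not past the threshold. With EZH2 siRNA 5.85% of all genes were higher than in its own control, and 13.4% were lower than in the control precursor group. All 4 were lower in the control siRNA group than in the control precursor group, with differences of -1.01 to -0.37. In that comparison 14.2% of all genes were lower. Metallothionein genes are near-identical copies, so a probe may bind RNA of more than 1 of them.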
